A study of Mus musculus with 9 samples.

Results

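miR-221 and miR-222 are a pair of microRNAs (miRNAs), short RNAs that lower the output of messages carrying a match to their seed, the bases near the 5′ end. The pair was followed through a bead array profile of mouse bone marrow after 5-fluorouracil (5-FU). A probe counted as a member if its description, without the species prefix, named the mature miRNA. This gave 2 of 582 miRNA probes, 1 for each, both described as matching human and mouse. A hairpin-named probe for mir-222 was left out by this rule.

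All animals were female C57Bl6/J mice aged 6 weeks. The 5-FU group (3 animals) had received 1 dose of 150 mg/kg into the peritoneum, and the 5 untreated animals had received none, with whole marrow taken at day 4 and red cells lysed before RNA isolation. 5-FU blocks thymidylate synthesis and kills dividing cells, so cycling progenitors are lost while resting stem cells are spared. Of the 9 arrays, 3 came from a second batch with treated animals only (numbers 1, 2 and 3), while the first combined all 5 untreated animals with an earlier array of treated animal 1. The 2 arrays of 5-FU animal 1 were averaged, so that 3 treated animals stand against 5 untreated ones, and treatment and batch overlap in part.

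In the blood system miR-221 and miR-222 are best known for acting on Kit, the receptor for stem cell factor, and in human cord blood cultures both decline as erythroid precursors mature. In human tumour cells they also target CDKN1B, which encodes the cell cycle inhibitor p27. They are abundant in endothelial and vascular smooth muscle cells too, so whole marrow can hold them from more than 1 cell type. The array has no readout that assigns a miRNA to progenitors. In bulk marrow, fewer cells of a type and less RNA per cell cannot be told apart.

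The mature sequences show why the pair is treated as 1 family. In RefSeq's mouse table (GRCm38.p6), 3 of 1738 mature miRNAs share the seed of the pair (bases 2 to 8, in capitals below). The third, miR-1928, had no probe on the array.
mmu-miR-221-3p: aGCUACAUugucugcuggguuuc
mmu-miR-222-3p: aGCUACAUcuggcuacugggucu
mmu-miR-1928: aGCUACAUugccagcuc
The arm named miR-221 or miR-222 on the array corresponds to the arm now called 3p. The 2 sequences are the same over their first 8 bases, and set base for base from the 5′ end, with no gap allowed, they match at 11 of 23 positions. A message site that pairs with the whole seed reads AUGUAGC.

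Both genes lie on the minus strand of chromosome X, Mir221 at chrX:19146294-19146388 and Mir222 at chrX:19146893-19146971 (GRCm38.p6), with 504 bases between the hairpins. No other RefSeq gene overlaps either hairpin, and the nearest one is the long noncoding RNA Gm14636, at a distance of 9500 bases. The hairpins are printed because the members come from neighbouring precursors, with the mature 3p arm in capitals.
mir-221 hairpin: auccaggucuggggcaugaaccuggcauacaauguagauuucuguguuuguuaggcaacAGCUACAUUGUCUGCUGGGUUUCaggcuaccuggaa
mir-222 hairpin: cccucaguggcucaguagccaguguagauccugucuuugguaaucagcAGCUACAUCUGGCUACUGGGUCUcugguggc
The 3p arm lies in the second part of each hairpin. No probe for the opposite arm of either member was used here.

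Both members gave bright signals on all 9 arrays. Raw fluorescence of miR-221 was 1358 to 2522 units on the 5-FU arrays and 1955 to 5339 on the untreated arrays, against 28 units in the brighter of 2 water wells. For miR-222 it was 1359 to 2727 units on the 5-FU arrays and 1428 to 4646.5 on the untreated arrays, against 29 units in the brighter well. Another blank well, named TMAC, gave 44 units for either probe, and the dimmest array lay 30.9 times above it. Over the whole table, summed raw fluorescence ran from 336483 to 679696 units per array, and 349 to 362 probes in the 5-FU animals and 266 to 338 in the untreated animals lay above the floor of the normalized values (log2 value 3). The blood-cell miRNAs miR-142-3p, miR-142-5p and miR-223 stood at means of 12.26 to 12.95 in 5-FU marrow and 12.41 to 12.72 in untreated marrow, with overlapping groups.

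The first comparison asked whether the pair changed in marrow at day 4 after 5-FU. miR-221 was lower in all 3 treated animals than in any untreated animal, at 43.3% of the untreated level on average. miR-222 was lower too, at 64.7% of the untreated level, by a smaller margin and with more spread among untreated animals.

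For miR-221, the deposited log2 values were 10.41, 10.13 and 10.37 in 5-FU animals 1 to 3, against 11.51, 11.22, 11.56, 11.64 and 11.61 in untreated animals 1 to 5. The groups did not overlap, and the highest treated animal lay 0.81 below the lowest untreated one, animal 2. The mean was 10.30 ± 0.15 (SD, n = 3) in 5-FU marrow and 11.51 ± 0.17 (SD, n = 5) in untreated marrow. In limma, which fits all 379 tested probes and borrows their spread, the change was -1.21 on the log2 scale (SE 0.11, 95% interval -1.48 to -0.94, Benjamini-Hochberg adjusted p = 0.000698), or 2.31-fold lower. By this rule 40.6% of the tested probes were called, made up of 25.1% called lower and 15.6% called higher, so a call for a fall was common in this experiment. miR-221 had rank 10 of 379 by p-value and rank 41 of the 95 called falls by size.

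For miR-222, the deposited log2 values were 10.46, 10.17 and 10.42 in 5-FU animals 1 to 3, against 11.28, 10.76, 11.36, 10.71 and 10.78 in untreated animals 1 to 5. All treated animals again lay below all untreated ones, but the gap was 0.25, and untreated animals 1 and 3 stood apart above the other 3. The mean was 10.35 ± 0.15 (SD, n = 3) in 5-FU marrow and 10.98 ± 0.32 (SD, n = 5) in untreated marrow. The change was -0.63 (SE 0.19, 95% interval -1.08 to -0.18, limma adjusted p = 0.0353), or 1.55-fold lower, with rank 80 of the 95 called falls by size. By p-value miR-222 had rank 141 of 379, with 154 probes called. Groups that did not overlap in this direction were found in 25.6% of the tested probes. An exact permutation test over the 56 splits of 8 animals gave p = 0.0357 for each member (two-sided), the smallest this design allows.

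**Figure D1:**
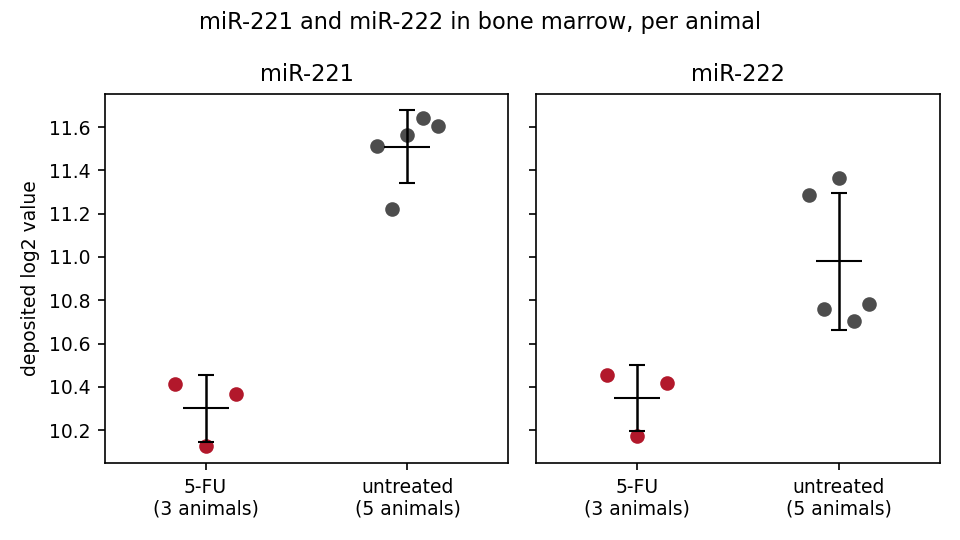
Deposited log2 value (y axis) of miR-221 and miR-222 in each animal. Points are animals, 5-FU (n = 3) left of untreated (n = 5), with the mean and SD as bars. The treated animals lie at 10.13 to 10.41 for miR-221 and 10.17 to 10.46 for miR-222, below all untreated animals, while untreated miR-222 spreads from 10.71 to 11.36.

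The fall of miR-221 kept its direction in each of the 25 alternatives computed and its call in 23 of them. That of miR-222 kept its direction in 25 and its call in 12. Alternatives that altered only the filter or the test could not move the change itself. Another used the series copy of the values, all 5238 equal to the deposited ones, so its change and call were fixed in advance. The exact permutation test counted as a kept call at its smallest possible p of 0.0357, which is unadjusted. The deposited values assume that every array has the same total, yet their totals are lower in batch 2, and the median change of all tested probes was -0.16. Relative to that median the changes were -1.05 for miR-221 and -0.47 for miR-222. After the deposited values were rescaled to truly equal totals, miR-221 was at -1.07 (limma adjusted p = 0.000732) and miR-222 at -0.49 (limma adjusted p = 0.0636).

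Raw fluorescence, scaled to an equal total after subtraction of the water wells, gave the members different outcomes. miR-221 stood at 10.48 to 10.71 in 5-FU animals and 11.17 to 11.61 in untreated animals, with no overlap, a change of -0.90 (limma adjusted p = 0.00261). miR-222 stood at 10.59 to 10.82 in 5-FU animals and 10.67 to 11.39 in untreated animals. Those ranges overlap, and the change of -0.27 did not pass (limma adjusted p = 0.395). On the control beads, which carry no assumption on total miRNA, miR-221 was at -0.82 and miR-222 at -0.19, and neither passed (limma adjusted p = 0.136 and 0.881). The groups overlapped for both members on that scale.

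Batch moved with treatment, since 2 of the 3 treated animals were measured in batch 2 alone. Within batch 1, where the 1 treated array stood against 5 untreated ones, miR-221 was at -1.02 and miR-222 at -0.49 (limma adjusted p = 0.0608 and 0.625). A fit of all 9 arrays that included batch, and that took both arrays of 5-FU animal 1 as independent, gave the same changes, and miR-221 passed (limma adjusted p = 0.0166) while miR-222 did not (limma adjusted p = 0.425). In that fit 9.76% of probes were called, 7.39% of all tested as lower, and its group change rests on the same 1 treated array. The 2 arrays of 5-FU animal 1 differed little in the deposited values, by -0.16 for miR-221 and -0.07 for miR-222 (batch 2 minus batch 1). In raw values at equal totals they differed by 0.23 and 0.38. The deposited batch 2 columns hold a probe-specific term, the same in all 3 arrays, of -0.15 for miR-221 and -0.21 for miR-222 relative to the median of 82 bright probes, with an SD of 0.43 over those probes.

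**Figure D2:**
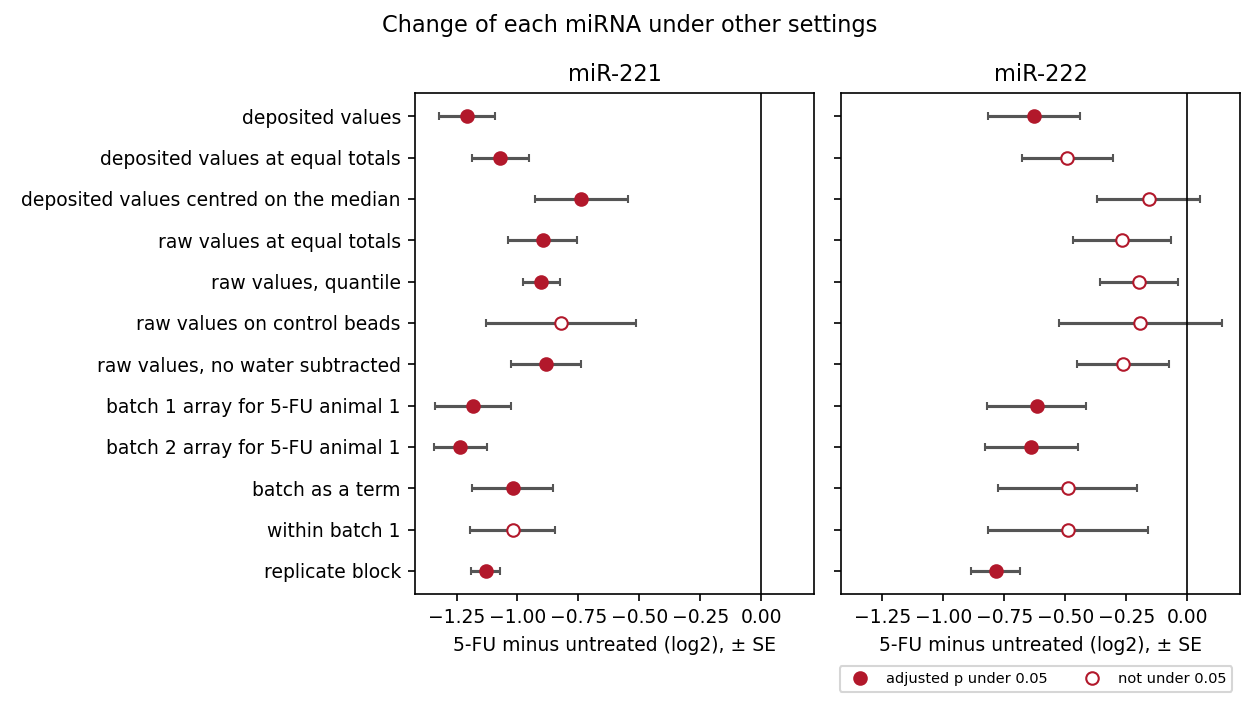
Change of each member (x axis, 5-FU minus untreated on the log2 scale, points with the SE as bars) under the deposited values and 11 other settings (y axis). Filled points have an adjusted p under 0.05. All points lie below 0, between -1.23 and -0.74 for miR-221 and between -0.79 and -0.16 for miR-222.

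The second comparison asked whether the members, made from neighbouring hairpins, fell by the same amount. In the deposited values miR-221 lost more signal than miR-222, so that miR-222 minus miR-221 was higher in every treated animal than in every untreated one. With batch as a term this shift did not pass, and such a separation was not counted over other probe pairs. The level of 1 probe cannot be set against that of another, but a change in their difference can be read, and any factor that scales a whole array cancels in it. The normalization constant of the batch 1 array of 5-FU animal 1 was also the same for both probes.

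The difference of miR-222 minus miR-221 was 0.044, 0.050 and 0.053 in 5-FU animals 1 to 3, against -0.23, -0.46, -0.20, -0.94 and -0.82 in untreated animals 1 to 5. The untreated animals were spread over a range wider than the gap between the groups. The mean was 0.049 ± 0.0043 (SD, n = 3) in 5-FU marrow and -0.53 ± 0.34 (SD, n = 5) in untreated marrow. The narrow spread of the treated animals rests on averaging the 2 arrays of 5-FU animal 1, which gave 0 in batch 1 and 0.089 in batch 2, and with either array alone the SD was 0.030 or 0.022. The shift of 0.58 on the log2 scale, a factor of 1.49, had p = 0.0357 in the exact permutation test over 56 splits (two-sided), the smallest possible. Untreated animals 1 and 3, which had the highest miR-222, were nearest to the treated animals.

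Raw values are only in part a separate check on this shift, since array scaling cancels in it. At equal raw totals the untreated differences are the same values as in the deposited data, and only the batch 2 arrays can differ. The shift there was 0.63, with treated animals at 0.075 to 0.11 and untreated animals at -0.94 to -0.20. With quantile normalization the shift was 0.70. In all 22 alternatives computed for it the shift was above 0, with a lowest value of 0.35 when the animal number was a block. The shift stayed at 0.58 by construction in those that rescaled the deposited values, used the series copy of them or altered only the filter. Within batch 1 it was 0.53, from 1 treated array with a difference of 0 (exact permutation p = 0.333, the smallest 6 arrays allow). With batch as a term it was 0.53 and did not pass (limma unadjusted p = 0.115).

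**Figure D3:**
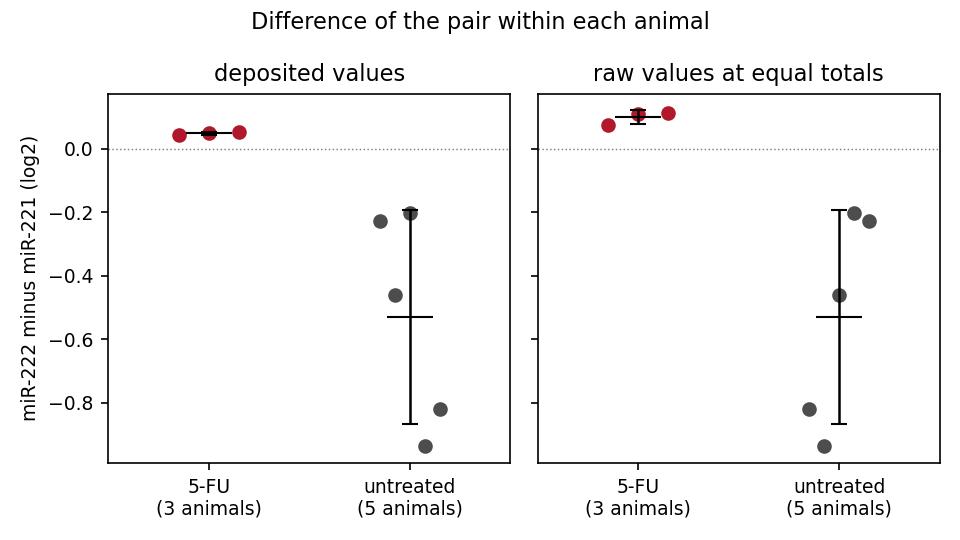
Difference of miR-222 minus miR-221 (y axis, log2) in each animal, from the deposited values (left) and from raw values at equal totals (right). Points are animals, 5-FU (n = 3) left of untreated (n = 5), with mean and SD. The treated animals lie above 0 and the untreated ones between -0.94 and -0.20 in both panels. The untreated differences are the same set of values in both panels, since array scaling cancels.

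The miRNAs whose course over the 8 animals was most like that of each member were found by the root mean square (RMS) difference of profiles centred on their own mean, among probes above the floor in all 8 animals. For miR-221 the nearest was miR-18a (RMS 0.090), followed by miR-106a (0.13), miR-92a (0.14), miR-20b (0.17) and miR-219 (0.17). The first 4 belong to the miR-17-92 cluster, known to be driven by Myc and E2F factors in dividing cells, or to its paralog, the miR-106a-363 cluster on chromosome X. Close copies such as miR-18a and miR-18b may not be told apart by their probes. Their changes were -1.20 for miR-18a, -1.16 for miR-106a, -1.19 for miR-92a and -1.46 for miR-20b, beside -1.21 for miR-221. All 4 were called lower, as was miR-219 (-1.12), but a call follows from the choice of profiles near that of miR-221. Over all tested probes 25.1% were called lower. With batch as a term the changes of the 4 were -1.07, -0.55, -0.90 and -0.70 in the same order. The likeness is a description over animals that differ by treatment.

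For miR-222 the nearest profiles were miR-194 (RMS 0.18), miR-146b (0.20), miR-107 (0.20), miR-27b (0.20) and miR-125a-5p (0.21). No miRNA was in both sets of 5. Of these, miR-194, miR-107, miR-27b and miR-125a-5p passed with changes of -0.82, -0.70, -0.66 and -0.51, and miR-146b at -0.43 did not (limma adjusted p = 0.163). These too were picked for likeness to a member that fell, so falls among them follow from the choice. With batch as a term miR-194 (-0.58), miR-107 (-0.46) and miR-27b (-0.33) lost their calls, and miR-125a-5p (-0.45) kept its call. The partner had rank 40 of 181 candidates for miR-221 and rank 59 for miR-222, at an RMS difference of 0.37. The sets were not fixed features of the data: in raw values at equal totals 2 of the 5 for miR-221 and 3 of the 5 for miR-222 were found again. On the control beads miR-106a turned to 0.049, and miR-194 was above 0 there and at equal totals of the raw values (0.19 and 0.11).

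Other miRNAs of haematopoietic stem and progenitor cells did not move as 1 group. Of 13 tested, 5 fell, 3 rose and 5 did not pass, beside 25.1% called lower and 15.6% called higher over all tested probes. The median change was -0.28, beside -0.16 for all tested probes. The largest falls were those of miR-10b (-1.18) and miR-10a (-0.91), which lie in Hox gene clusters. The rises were led by miR-126-5p (1.61), made within the gene Egfl7, which endothelium and stem cells express, and miR-196a (1.41), another Hox cluster miRNA. With batch in the limma fit 1 member fell and 1 rose, and the calls of miR-10b (-0.29, adjusted p = 0.774), miR-10a (-0.24, adjusted p = 0.489) and miR-196a (1.25, adjusted p = 0.179) were lost. In raw values at equal totals 1 member fell and 4 rose, and miR-10b was at 0.16. Without 5-FU animal 2, 3 members fell.

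Of 8 miRNAs reported in human cells to act on the same targets, KIT or CDKN1B, 7 had a tested probe, and 2 fell, 2 rose and 3 did not pass, beside 25.1% called lower and 15.6% called higher over all tested probes. miR-148a (-0.79, limma adjusted p = 0.0152) and miR-148b (-0.63, limma adjusted p = 0.0411) fell, as the pair did. miR-218 (1.63) and miR-196a (1.41) rose, the latter also counted among the stem and progenitor miRNAs. miR-218 stood at 8.23 to 8.32 in treated animals, against 5.72 to 7.27 in untreated animals. Groups that did not overlap in this upward direction were found in 24.3% of the tested probes. The list's median change was 0.04, but 2 of the 3 members that did not pass were at the floor in some animals. Among probes above log2 7 the list's median change was 0.54. In the limma fit with batch 0 of the 7 were called, although 2 had an unadjusted p under 0.05, and in raw values at equal totals 3 rose and neither fall passed. Without 5-FU animal 2 or 3, neither fall passed and 1 member rose, and without 5-FU animal 1 or untreated animal 1, 3, 4 or 5, 1 fell.

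Among miRNAs of chromosome X, which carries the pair, falls were frequent. Of 19 tested probes whose mouse gene RefSeq places there, 13 fell, 1 rose and 5 did not pass, beside 25.1% lower calls over all tested probes, and the median change was -0.91. The largest falls were those of miR-363 (-2.93), miR-351 (-2.58), miR-362-5p (-2.03) and miR-501-5p (-1.84), each from a cluster elsewhere on the chromosome. The list holds miR-18b, miR-20b, miR-106a and miR-363 of the miR-106a-363 cluster, all called lower, so the 13 falls are not 13 separate loci. The 2 members with a further copy on another chromosome, miR-19b and miR-92a, were called lower too. The list also holds 5 probes with a human name only. The rise was that of miR-465a-5p, named after its value was seen, which lay at 3.05 to 3.10 in 5-FU animals, against the floor value of 3 in each untreated animal. In raw values at equal totals 5 of the list's 17 tested members fell, where lower calls over all probes numbered 33. In the fit with batch 4 of 19 fell, beside 7.39% of all tested probes. On the control beads 1 of 17 fell, where lower calls over all probes numbered 9. Without 5-FU animal 3, 8 of 19 fell, where lower calls over all probes numbered 66.

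miRNAs of other cell types moved with treatment. All 4 vessel wall miRNAs rose, beside 15.6% called higher over all tested probes: miR-126-5p (1.61), miR-143 (1.11), miR-145 (1.06) and miR-126-3p (0.90), of which the miR-126 arms mark endothelium and the other two smooth muscle. The miR-126 arms are also counted among the stem and progenitor miRNAs. The log2 of the summed linear levels of the 4 vessel wall miRNAs was 12.83 to 13.02 in 5-FU animals and 11.53 to 12.20 in untreated animals. No marker was at the floor in any animal. The pair, although known from the same vessel wall cells, went the other way. All 3 tested skeletal muscle miRNAs rose, miR-133b by 1.16, miR-206 by 1.04 and miR-1 by 0.80. The log2 of their summed linear levels was 13.64 to 13.74 in 5-FU animals and 12.23 to 13.24 in untreated animals. Without 5-FU animal 2 or 3, 1 of the 3 passed, and miR-1 lost its call in 12 of 24 alternatives. The part of these cells in the change of the pair was not tested. In the limma fit with batch, which called 9.76% of all tested probes, 2 of the 4 vessel wall members were called, and 0 of the 3 muscle members, with 1 of these at an unadjusted p under 0.05. On the control beads limma again called 2 of the 4 and 0 of the 3, with all 3 muscle members at an unadjusted p under 0.05.

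Of the erythroid miRNAs, miR-451 fell by 0.70 (limma adjusted p = 0.0132), while miR-144 was at -0.12 and miR-486 at 0.54 without passing. Over all tested probes 25.1% were called lower. The log2 of the summed linear levels of the 3 erythroid miRNAs was 13.97 to 14.22 in 5-FU animals and 14.20 to 14.52 in untreated animals after red cell lysis. miR-451 was at -0.0058 within batch 1. The pan-haematopoietic miRNAs gave 0.34 for miR-142-3p, -0.15 for miR-142-5p and -0.16 for miR-223. Of these, 0 of 3 were called by limma or by the methods' t-test, beside 40.6% of all tested probes called by limma. At an unadjusted limma p under 0.05 there were also 0 of 3.

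**Figure D4:**
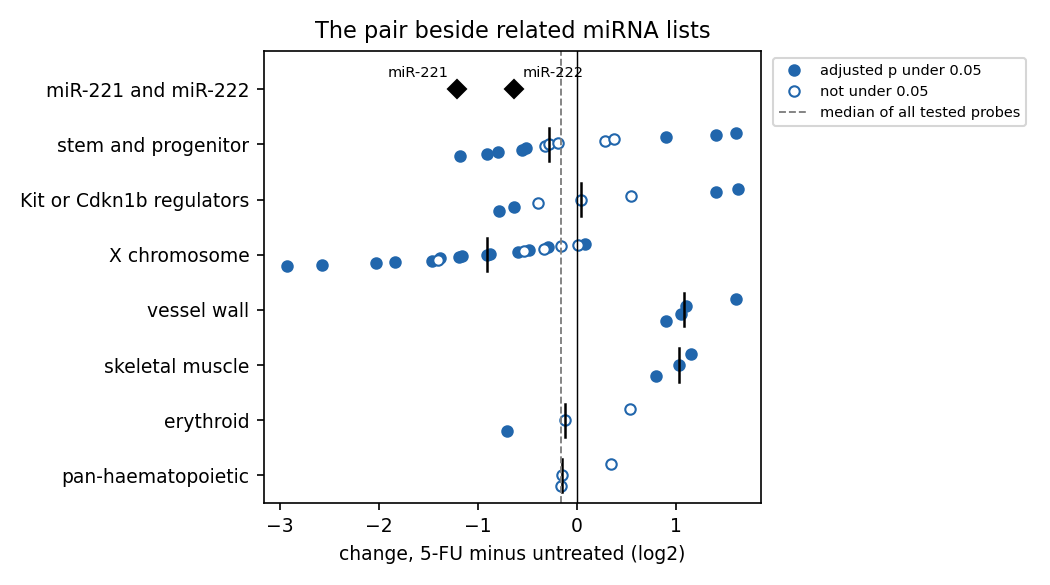
Change on the log2 scale (x axis, 5-FU minus untreated) of the pair (diamonds) and of the tested members of 7 lists (y axis). Filled circles passed limma at an adjusted p under 0.05, short black bars are list medians, and the dashed line is the median of all tested probes (-0.16). Chromosome X members lie mostly to the left, with a median of -0.91, and vessel wall and skeletal muscle members to the right.

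The authors' deposited table, which counts the 2 arrays of 5-FU animal 1 separately, marks both members among the 168 probes that pass its signal threshold. The authors' deposited table gives means of 10.33 and 11.51 for miR-221 in 5-FU and untreated arrays, with a p-value of 1.29e-05 and a false discovery rate of 0.000416. The authors' deposited table gives means of 10.38 and 10.98 for miR-222, with a p-value of 0.00963 and a false discovery rate of 0.0231. A rate under 0.05 was common there, given for 92 of the 168 probes.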

How the data were processed

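The normalized log2 values deposited by the authors assume the same total miRNA signal in every sample, as the series design text states, and have a floor of 3. The authors deposited raw bead fluorescence intensity too, which the file headers mark as unnormalized, with blank wells alongside, and their own p-values and false discovery rates for 168 probes. The sources used here do not name the software. Background wells, in the same fluorescence units, were deposited by the authors as other columns. All 5 untreated columns of the normalized table match the raw column of another untreated animal, so raw and normalized values were not paired per untreated animal, and groups are not affected. Untreated animal numbers in the text follow the normalized columns. The replicate block and the correlations of same-numbered animals depend on those numbers, which are uncertain. Separate animals are the replicates.

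The 12 control bead rows were left out. The 379 probes that exceeded the floor in 3 or more of the 8 animals were tested with limma 3.58.1 in R 4.3.3 (group as the term, two-sided, Benjamini-Hochberg over all of them, threshold 0.05). The fit was tested on simulated data. The members, lists and tests were chosen with earlier results of these data known. Text names both members, the 5 nearest profiles of each, and all members of lists with up to 4 tested probes or the 4 largest changes of longer ones. miR-18b and miR-19b were named outside this rule, after their values were seen. Alternatives covered scaling, background, filter, test, batch, replicate block and leaving out each animal. Arrays were 9 in number, which limits precision.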

Additional observations from a re-analysis of the deposited data

Results flagged for a closer look

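In miR-18a, the miRNA with the profile nearest to miR-221, untreated animal 2 lay at a log2 value of 11.22, below the other 4 untreated animals at 11.70 to 11.85. Its distance to the next animal was large for a group of 5, at 0.758 of the whole range. Of 35 miRNAs checked in this way 1 stood out, and chance alone gives about 1 in 20. The same animal had the lowest miR-221 of its group, at 11.22. This is no separate observation, since miR-18a was chosen for its likeness to miR-221 over these animals.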

How the results depend on the processing

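Against a change of -1.21 for miR-221, the call was lost within batch 1 (-1.02) and on the control beads (-0.82). Leaving out each animal in turn gave -1.28 to -1.12 with every call kept (highest limma adjusted p = 0.00508). For miR-222 (-0.63) the call was lost with batch as a term and within batch 1 (-0.49 in both), at equal deposited totals (-0.49), after median centring (-0.16), in raw values at equal totals (-0.27), with quantile normalization (-0.20), on control beads (-0.19), without water subtraction (-0.26) and without a filter (-0.63, limma adjusted p = 0.0548). Leaving out each animal gave -0.70 to -0.53, and the call was lost without any 1 of 5-FU animals 1, 2 and 3 or untreated animal 1 (highest limma adjusted p = 0.133). The cause of these losses was not tested. The shift of miR-222 minus miR-221 was 0.53 with batch as a term and within batch 1, and 0.48 to 0.66 without 1 animal, where the exact permutation test cannot pass 0.05.

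The 154 calls (59 higher, 95 lower) became 102 with the batch 1 array alone for 5-FU animal 1, 37 with batch as a term, 12 within batch 1, 68 in raw values at equal totals (35 higher, 33 lower), 98 with quantile normalization (51 and 47), 19 on control beads (10 and 9), 74 without water subtraction (34 and 40), 88 among probes above log2 7, 52 with the replicate block and 95 to 168 without 1 animal, lowest without 5-FU animal 2 (95) and 3 (97). The higher and lower calls were 86 and 79 at equal deposited totals and 118 and 55 after median centring, which moved the median change to 0.31. The methods' t-test called 175 after Benjamini-Hochberg adjustment, both members included.

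Signs turned for miR-10b in raw values at equal totals (0.16), with quantile (0.054), on control beads (0.23) and without water subtraction (0.13), for miR-194 in the same settings other than quantile (0.11, 0.19 and 0.10), and on control beads for miR-106a (0.049) and miR-125a-5p (0.069).

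With the animal number as a replicate block, miR-221 was at -1.13, miR-222 at -0.79 and the shift of the pair at 0.35. The groups share only numbers: deviations of same-numbered animals correlated at 0.05, 0.35 and 0.17 for numbers 1, 2 and 3, and 5-FU animal 1 was closest to untreated animal 5. The animal as a random block could not be run, since limma gave a correlation for 0 of 379 probes.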

Other observations

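The hairpin-named probe for mir-222, which is no member, lay near the floor. Its deposited log2 values were 3.15, 3 and 3.10 in 5-FU animals 1 to 3, against 4.25, 4.76, 6.31, 4.68 and 3 in untreated animals 1 to 5, with 1 animal of each group at the floor. The groups overlapped, and the change of -1.52 did not pass (SE 0.67, limma adjusted p = 0.115). Raw fluorescence was 18 to 44 units on the 5-FU arrays and 23 to 102 on the untreated arrays, against 15 in the brighter water well.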
